A study of Mus musculus with 6 samples.

Results

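Small nucleolar RNAs (snoRNAs) and the genes that carry them were compared between Dicer KO and Dicer WT CD4 T cells. The members were the genes whose platform annotation gives exactly 1 symbol that is Gas5 or starts with Snora, Snord, Snhg or Scarna and a number. This rule took 60 of 19935 genes, on 72 of 28815 array rows: 20 H/ACA snoRNAs (Snora), 31 C/D snoRNAs (Snord), 3 Cajal body RNAs (Scarna) and 6 host genes (Gas5 and 5 Snhg genes). The cells were untreated CD4+CD62L- T cells of mouse lymph node, isolated by flow sorting, with 3 biological replicates of each genotype, per the labels and the series' design text. Animals of both genotypes carry Dicer lox/lox. Dicer WT animals are negative for CD4Cre and Dicer KO animals are positive for it, a Cre transgene named for the Cd4 gene that drives it, which also acts in the precursors of these cells. Age, sex and strain are not stated. Total RNA was amplified, biotin-labelled and hybridised to 1-colour MoGene 1.0 ST arrays.

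snoRNAs guide the chemical modification of ribosomal RNA in the nucleolus. C/D snoRNAs direct methylation of the ribose by fibrillarin, and H/ACA snoRNAs direct the conversion of uridine to pseudouridine by dyskerin. Cajal body RNAs do the same for the small RNAs of the spliceosome. Most mammalian snoRNAs lie in introns and are trimmed out of the spliced intron, many of them from genes for ribosomal proteins and translation factors. Others lie in Snhg genes and Gas5, whose spliced transcripts encode no known large protein. Many such host transcripts begin with a terminal oligopyrimidine tract, a stretch of C and T at the very start that is a known feature of translation genes.

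Each value below is a deposited log value, read as log2, from which the authors had subtracted the row's median over the 6 arrays. A value above 0 is thus high for that gene among these arrays, and levels of different genes cannot be compared. A gene was called when limma's moderated test of Dicer KO against Dicer WT gave a Benjamini-Hochberg adjusted p, taken over all 19935 genes, under 0.05. Over all genes, 8.73% were called: 5.94% rose in Dicer KO and 2.79% fell. The median difference was -0.011. In bulk samples, fewer cells of a type and less RNA per cell cannot be told apart. The row of Dicer1 read 0.12, 0.02 and -0.10 in Dicer WT replicates 1 to 3, against 0.21, -0.02 and -0.09 in Dicer KO replicates 1 to 3, and a row whose probes may lie outside the deleted segment checks nothing about the deletion. The step of the stored numbers gives a coarse level class (upper, middle or finer), and the upper class held 93.3% of 208 rows of ribosomal protein genes and 2.90% of 1035 rows of olfactory receptor genes. It held 8 of 9 CD4 T cell markers, 1 of 2 CD8 T cell markers, 0 of 7 B cell markers, 1 of 7 myeloid markers, 0 of 3 NK cell markers and 0 of 3 plasma cell markers. Among the 9 CD4 T cell markers, Cd4 and Cd2 rose by 0.67 and 0.57 (adjusted p = 0.00328 and 0.0033). Cd5 fell, with a difference of -0.44 (adjusted p = 0.00704), and the others were not called. The B cell marker median was -0.57, 0.02 and -0.27 in Dicer WT replicates 1 to 3, and 0.16, 0.08 and 0.12 in Dicer KO replicates 1 to 3. All 7 differences were positive. For 3 of the 7 every Dicer KO array was above every Dicer WT array (13.5% over all genes). Dicer WT 1 was the lowest Dicer WT array in all 7. Of these B cell markers, Bank1 rose and the others were not called. Among myeloid markers Lyz2 rose and the other 6 were not called. Their part in the snoRNA differences was not tested.

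The starts of host genes are shown first, because the tract lies there and the snoRNAs described below are made from these transcripts. Each run holds 15 bases before and 15 bases from the annotated start, read on the gene's own strand from RefSeq windows of build GRCm38.p6. Capitals mark a pyrimidine tract, defined here as a C within 5 bases of the start followed by at least 4 bases that are C or T, as far as the run extends. The first 7 are the hosts of called snoRNAs that have a window and the tract, and Rpl23 is a host of a called snoRNA without the tract.
Gas5 (chr1:161035151-161035180, plus strand), host of Snord47: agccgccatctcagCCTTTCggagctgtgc
Snhg12 (chr4:132308663-132308692, plus strand), host of Snora16a and Snora44: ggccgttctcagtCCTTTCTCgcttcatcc
Snhg3 (chr4:132353672-132353701, minus strand), host of Snora73a and Snora73b: tagtcgaccacgcctgaCTTCCgggcgtta
2410006H16Rik (chr11:62602862-62602891, plus strand), host of Snord49a and Snord49b: tcacgcgccgtCTTTCTCTgcggccatcat
Rack1 (chr11:48800345-48800374, plus strand), host of Snord95 and Snord96a: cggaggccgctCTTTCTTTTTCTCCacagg
Rpl27a (chr7:109519180-109519209, plus strand), host of Snora3: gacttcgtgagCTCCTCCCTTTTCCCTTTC
Rpl39 (chrX:37085208-37085237, minus strand), host of Snora69: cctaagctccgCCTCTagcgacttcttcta
Rpl23 (chr11:97782425-97782454, minus strand), host of Snora21: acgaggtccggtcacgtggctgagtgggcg
Not every host had a window. Of hosts with one, a tract was found at 7 of 11 that hold a called snoRNA and at 8 of 22 that do not. Over all genes with a window it was found at 5672 of 26742 (21.2%). Gas5 has a second annotated start, at which no tract was found. An annotated start can be some bases away from the start used in these cells, so a missing tract says only that these letters are not in this window. No test was made of these shares.

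Small nucleolar RNAs were lower in Dicer KO cells. Of the 60 members, 17 fell and 0 rose, where 2.79% of all genes fell, and 54 had a negative difference. At an unadjusted p under 0.05 in limma, 30 were lower and 0 higher, where 9.4% of all genes were lower and 12.1% higher. The differences of the called members ranged from -0.29 to -0.86, or 1.22-fold to 1.82-fold lower in Dicer KO. For 27 members every Dicer KO array was below every Dicer WT array, and for 0 the reverse held, where 12.7% of all genes were lower without overlap. Leaving out 1 array at a time gave 10 to 20 called members, all lower in Dicer KO. The lowest counts, 10, came without Dicer WT 1 and without Dicer KO 2, where the genes called lower over the whole table also dropped, from 557 to 215 and 176. In the full fit and all 6 fits that lack 1 array, 7 members were called: Snora3, Snora7a, Snora21, Snora44, Snora73b, Snord49b and Snord73b.

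**Figure D1:**
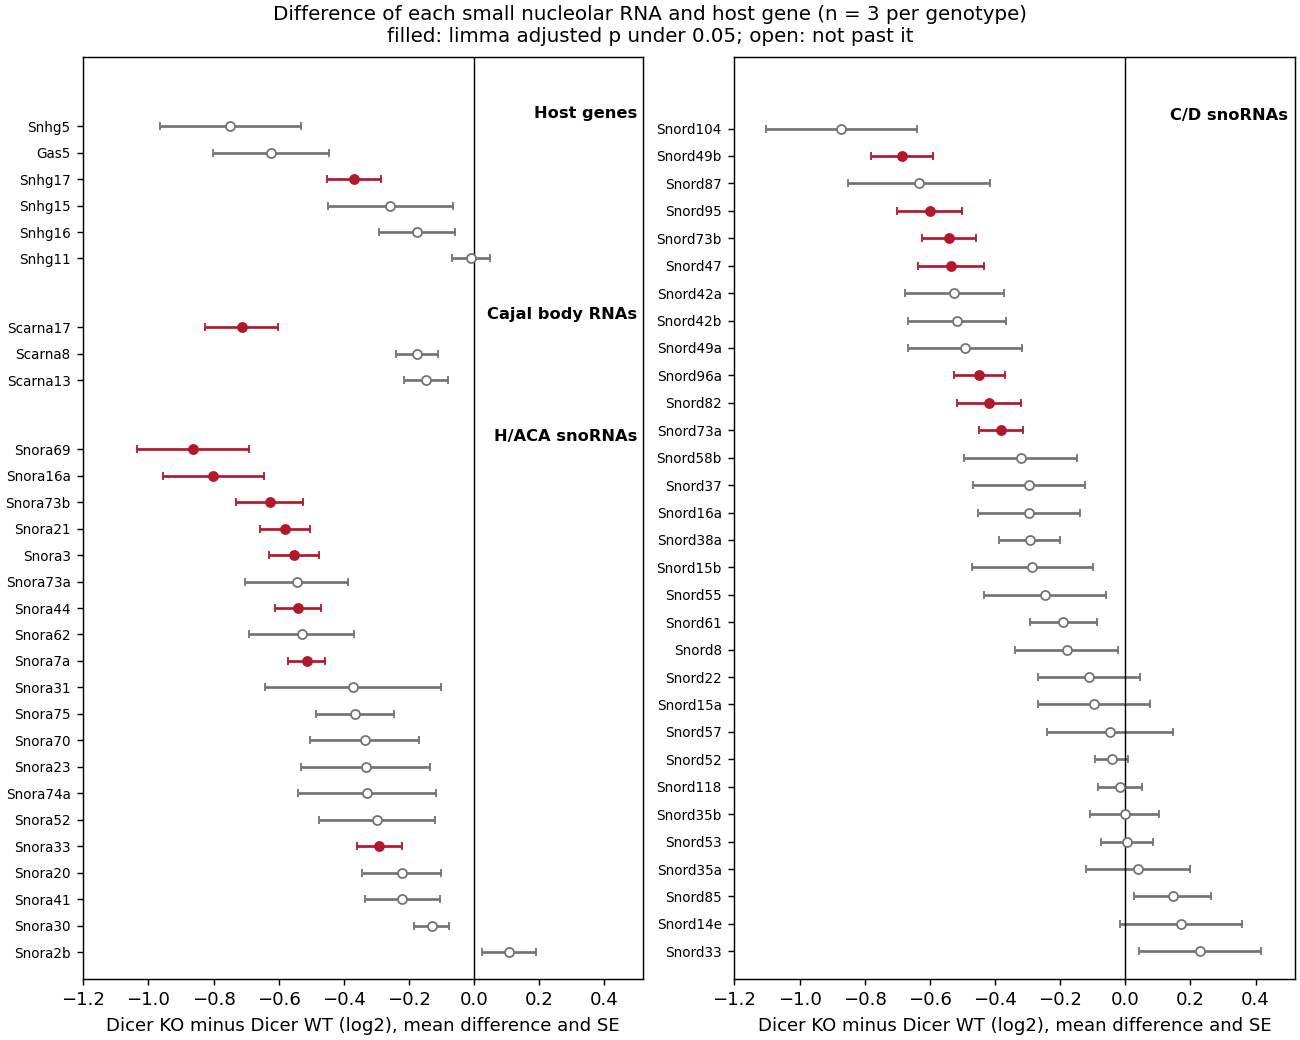
The difference of each member, Dicer KO minus Dicer WT on the log2 scale, with the SE of limma's fit (n = 3 arrays per genotype). Filled red points passed an adjusted p of 0.05 and open grey points did not. All 17 filled points lie left of 0, and 6 of the 60 points lie right of it.

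H/ACA snoRNAs, the guides of pseudouridylation, were lower in Dicer KO. Of 20, 8 fell and 0 rose, 19 had a negative difference, and the class median was -0.37. At an unadjusted p under 0.05, 12 were lower and 0 higher (9.4% and 12.1% over all genes). Without Dicer KO 1 or without Dicer KO 2, 5 of 20 were called lower. Without Dicer WT 1, 7 were, with a class median of -0.48.

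Snora7a lies in an intron of the ribosomal protein gene Rpl32. It read 0.34, 0.20 and 0.35 in Dicer WT replicates 1 to 3, against -0.20, -0.24 and -0.21 in Dicer KO replicates 1 to 3. Values below keep this order. The Dicer KO arrays lay close together and under every Dicer WT array. Its difference was -0.51 ± 0.06 (SE, n = 3 per genotype, adjusted p = 0.00319), the lowest p of any member.

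Snora21, in Rpl23, read 0.40, 0.17 and 0.39 in Dicer WT and -0.33, -0.17 and -0.28 in Dicer KO. The genotypes did not overlap, and Dicer WT 2 and Dicer KO 2 were the arrays nearest each other. The difference was -0.58 ± 0.08 (adjusted p = 0.00595), and its 2 rows, tested separately, gave -0.59 and -0.57. Snora3, in Rpl27a, read 0.49, 0.21 and 0.26 in Dicer WT against -0.24, -0.21 and -0.24 in Dicer KO, a difference of -0.55 ± 0.08 (adjusted p = 0.00696).

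Snora69, in the X-linked ribosomal protein gene Rpl39, had the largest difference of the class, -0.86 ± 0.17 (adjusted p = 0.025). Dicer WT 3 alone read 0.90, against 0.27 and 0.31 on Dicer WT 1 and 2, and the Dicer KO arrays read -0.54, -0.27 and -0.29. Leaving out any of the 3 Dicer KO arrays ended the call (adjusted p 0.0541 to 0.0793). Without any 1 array the difference stayed between -0.66 and -0.97.

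Snhg12 is a non-coding host whose introns hold Snora16a and Snora44, and both fell. Snora44 read 0.37, 0.29 and 0.18 in Dicer WT and -0.25, -0.18 and -0.35 in Dicer KO, a difference of -0.54 ± 0.07 (adjusted p = 0.0052). Snora16a read 0.23, 0.25 and 0.79 in Dicer WT and -0.47, -0.44 and -0.23 in Dicer KO. Its difference of -0.80 ± 0.16 (adjusted p = 0.0224) lost its call when Dicer KO 1 (adjusted p = 0.0671) or Dicer KO 2 (0.0963) was left out. Neither snoRNA overlapped between genotypes, and the high Snora16a value of Dicer WT 3 had no counterpart in Snora44.

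Snora73a and Snora73b, close copies in the non-coding gene Snhg3, are needed for ribosomal RNA processing rather than modification. Snora73b read 0.33, 0.17 and 0.57 in Dicer WT and -0.35, -0.17 and -0.29 in Dicer KO, and fell by 0.63 on the log2 scale (SE 0.10, adjusted p = 0.0127). Snora73a read 0.15, 0.21 and 0.78 against -0.20, -0.15 and -0.15 and was not called (-0.55 ± 0.16, adjusted p = 0.0868). Without Dicer WT 3, its high array, it was called at -0.34 (adjusted p = 0.0167). Rows of such close copies can take signal from each other, so each is uncertain by itself.

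Snora33, in Rps12, was the smallest H/ACA call, at -0.29 ± 0.07 (adjusted p = 0.0448). Its arrays read 0.14, 0.05 and 0.12 in Dicer WT and -0.24, -0.26 and -0.05 in Dicer KO. It remained called only without Dicer KO 3, and was lost without any 1 of the other arrays (adjusted p 0.0892 to 0.157).

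The other 11 H/ACA snoRNAs that were not called lay between -0.53 and 0.11. Snora62, in Rpsa, gave -0.53 ± 0.16 (adjusted p = 0.099), with Dicer WT 2 at -0.01 below Dicer KO 3 at 0.01. Snora31, in the translationally controlled gene Tpt1, read 0.95, 0.30 and -0.27 in Dicer WT, so its difference of -0.37 had an SE of 0.27. Snora75, in the nucleolin gene Ncl, read 0.48, 0.37 and 0.003 in Dicer WT and -0.003, -0.13 and -0.11 in Dicer KO (-0.37 ± 0.12, adjusted p = 0.121), and was called without Dicer WT 3 at -0.51 (adjusted p = 0.00904). Snora70, in Rpl10, gave -0.34 ± 0.17 (adjusted p = 0.315). Snora23, Snora74a and Snora52 were highest in Dicer WT 3 and lowest in Dicer KO 1, with differences of -0.33, -0.33 and -0.30. The 4 least negative were Snora20 (-0.22), Snora41 (-0.22), Snora30 (-0.13) and Snora2b, the only H/ACA snoRNA with a positive difference (0.11 ± 0.08, adjusted p = 0.553).

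**Figure D2:**
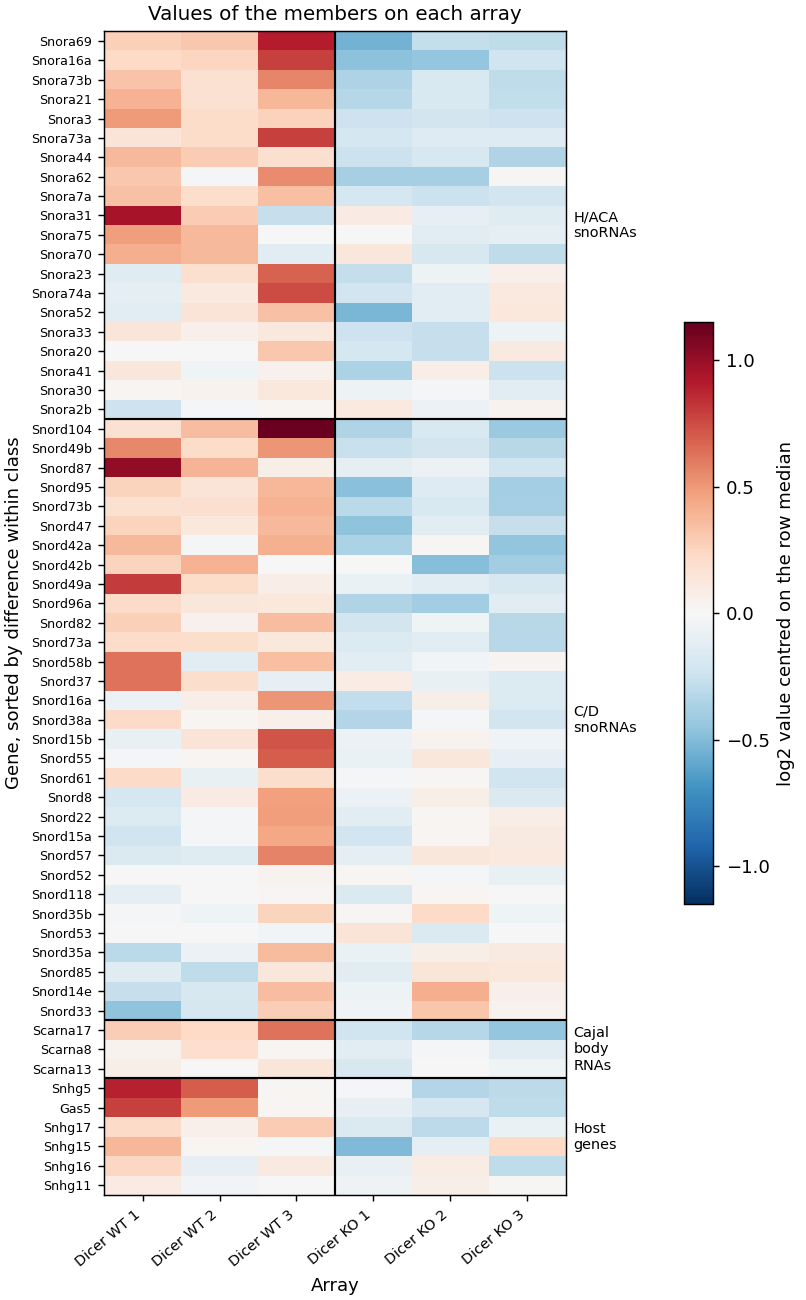
Values of the 60 members (rows, sorted by difference within each class) on the 6 arrays (columns), as log2 values centred on the median of the row, with red high and blue low. Most rows turn from red in Dicer WT to blue in Dicer KO. Dicer WT 3 is the strongest red column in many snoRNA rows but not for Gas5 and Snhg5.

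C/D snoRNAs, the guides of ribose methylation, had 7 of 31 members lower and 0 higher. Of the 31, 26 had a negative difference, and the class median was -0.29. At an unadjusted p under 0.05, 13 were lower and 0 higher (9.4% and 12.1% over all genes). Dicer WT 1 and Dicer WT 3 mattered most: without Dicer WT 1, 2 of 31 were called lower, and without Dicer WT 3 the class median was -0.14, with 8 called. With array weights in limma the median was -0.15. The difference in calls between H/ACA and C/D snoRNAs was not tested.

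Snord49b, in the non-coding gene 2410006H16Rik, read 0.56, 0.21 and 0.51 in Dicer WT and -0.25, -0.21 and -0.32 in Dicer KO. The difference was -0.68 ± 0.10 (adjusted p = 0.00685), the largest among the C/D calls. Snord49a, from the same gene, read 0.80, 0.21 and 0.07 in Dicer WT and -0.07, -0.12 and -0.19 in Dicer KO. Its arrays did not overlap either, but the spread within Dicer WT left it uncalled (-0.49 ± 0.17, adjusted p = 0.15).

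Snord73a and Snord73b lie in the ribosomal protein gene Rps3a1, and both fell. Whether their rows take signal from each other, as those of close copies can, was not looked at. Snord73b read 0.17, 0.18 and 0.40 in Dicer WT and -0.31, -0.17 and -0.38 in Dicer KO (-0.54 ± 0.08, adjusted p = 0.00992). Snord73a read 0.22, 0.21 and 0.12 against -0.16, -0.12 and -0.32 (-0.38 ± 0.07, adjusted p = 0.0164), and lost its call when Dicer WT 1 (adjusted p = 0.0701) or Dicer WT 2 (0.062) was left out.

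Snord95 and Snord96a come from Rack1, which encodes a scaffold protein of the small ribosomal subunit. Snord95 read 0.26, 0.15 and 0.38 in Dicer WT and -0.48, -0.15 and -0.39 in Dicer KO (-0.60 ± 0.10, adjusted p = 0.013), and was lost without Dicer WT 1 (adjusted p = 0.0552). Snord96a read 0.22, 0.13 and 0.12 against -0.35, -0.40 and -0.12 (-0.45 ± 0.08, adjusted p = 0.0165). Its call held only where Dicer WT 3 or Dicer KO 3 was the array left out (adjusted p 0.0505 to 0.0707 for the other 4). Both snoRNAs of this gene were lower in every Dicer KO array than in any Dicer WT array.

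Snord47, which lies in Gas5, read 0.25, 0.12 and 0.38 in Dicer WT and -0.47, -0.12 and -0.27 in Dicer KO. Its difference was -0.54 ± 0.10 (adjusted p = 0.021), and the call was lost when Dicer WT 1 (adjusted p = 0.0786) or Dicer KO 3 (0.0522) was left out. Snord82, in Ncl, fell by 0.42 on the log2 scale (SE 0.10, adjusted p = 0.0446), with 0.27, 0.05 and 0.36 against -0.21, -0.05 and -0.32. It was called without Dicer WT 2 and lost without any 1 of the other arrays (adjusted p 0.066 to 0.142).

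Snord104 had the most negative difference of all members but was not called (-0.87 ± 0.23, adjusted p = 0.0651). It read 0.18, 0.35 and 1.14 in Dicer WT and -0.34, -0.18 and -0.43 in Dicer KO. Without Dicer WT 3 it was called at -0.58 (adjusted p = 0.0164). Snord87, in Snhg6, had its high value on Dicer WT 1 instead, with 1.02, 0.39 and 0.07 against -0.11, -0.07 and -0.23 (-0.63 ± 0.22, adjusted p = 0.137). It too was called without Dicer WT 3, at -0.85 (adjusted p = 0.0351). Snord42a and Snord42b, in Rpl23a, had nearly equal differences of -0.53 and -0.52 (adjusted p = 0.0868 and 0.0871), and in each the lowest Dicer WT array lay below the highest Dicer KO array. Snord42b was called without Dicer KO 1 (adjusted p = 0.029), and Snord58b, in Rpl17, without Dicer WT 2 (adjusted p = 0.0417).

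Several C/D snoRNAs showed no call and a difference near 0 or above it. Snord33, in the ribosomal protein gene Rpl13a, had the most positive difference, 0.23 ± 0.19 (adjusted p = 0.577), with -0.46, -0.19 and 0.28 in Dicer WT and -0.04, 0.32 and 0.04 in Dicer KO. Its neighbour Snord35a gave 0.04 ± 0.16, and without Dicer WT 1 -0.11. Snord14e, in the chaperone gene Hspa8, gave 0.17 ± 0.19, Snord85 0.15 ± 0.12, and Snord53, in Wdr43, 0.01 ± 0.08. Snord118, the RNA also known as U8, which acts in processing of the large-subunit ribosomal RNA and is made from a gene of its own, gave -0.02 ± 0.07 (adjusted p = 0.944). It was the only small RNA member nested in no gene of the RefSeq table. The SEs of Snord33, Snord14e and Snord35a were 0.16 to 0.19, where the smallest call was a difference of -0.29, and those of Snord118 and Snord53 are smaller. Both rows of Snord118 lay in the finer level class, the lowest, which held 3.44% of all rows. Whether its signal stood above background is not known, so its small SE does not show that it was unchanged.

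Of the Cajal body RNAs, Scarna17 fell. It read 0.28, 0.23 and 0.62 in Dicer WT and -0.23, -0.33 and -0.45 in Dicer KO, a difference of -0.71 ± 0.11 (adjusted p = 0.0103), and was lost without Dicer KO 2 (adjusted p = 0.0507). Its 2 rows read nearly the same on every array and both gave -0.71, so they are not independent readings. Scarna8, in Haus6, gave -0.18 ± 0.06 (adjusted p = 0.157) with no overlap between genotypes. Scarna13, in Snhg10, gave -0.15 ± 0.07 (adjusted p = 0.276).

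The 6 host genes all had negative differences, and 1 fell. At an unadjusted p under 0.05, 3 were lower and 0 higher (9.4% and 12.1% over all genes). Their median was -0.31. Snhg17 read 0.22, 0.05 and 0.29 in Dicer WT and -0.17, -0.30 and -0.07 in Dicer KO, the mean of 3 rows, and fell by 0.37 on the log2 scale (SE 0.08, adjusted p = 0.0397). Its call held only where Dicer WT 2 or Dicer KO 3 was the array left out (adjusted p 0.087 to 0.135 for the other 4).

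Gas5, named for its accumulation in growth-arrested cells and host of many C/D snoRNAs, read 0.79, 0.49 and 0.02 in Dicer WT and -0.09, -0.19 and -0.29 in Dicer KO. Every Dicer KO array was lower than every Dicer WT array, yet Dicer WT 3 stood close to the Dicer KO arrays. The difference of -0.62 ± 0.18 was not called (adjusted p = 0.0809), and without Dicer WT 3 it was -0.83 (adjusted p = 0.00789). Of its 4 rows tested by themselves, 1 was called, at -0.54 (adjusted p = 0.0067), and that row had the smallest spread within Dicer WT (0.39, 0.25 and 0.18). The other 3 rows gave -0.69, -0.95 and -0.32.

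Snhg5, like Gas5, had Dicer WT 3 below the other Dicer WT arrays, with 0.89, 0.70 and 0.01 in Dicer WT and -0.01, -0.34 and -0.30 in Dicer KO. The difference was -0.75 ± 0.22 (adjusted p = 0.0865), and -1.01 (adjusted p = 0.00603) without Dicer WT 3. Snhg15 gave -0.26 ± 0.19, Snhg16 -0.18 ± 0.12 and Snhg11 -0.01 ± 0.06, and the genotypes overlapped for each of them.

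The Dicer WT arrays were less alike than the Dicer KO arrays for these genes. The SD within Dicer WT was larger than within Dicer KO for 43 of 60 members, with medians of 0.21 and 0.13, where over all genes the medians were 0.076 and 0.076. This was not particular to the members. It was also larger for 10 of 12 other structured RNAs (medians 0.19 and 0.09) and 7 of 7 B cell markers (0.26 and 0.10). For ribosomal protein genes it was larger in 32 of 63 (0.10 and 0.13). Among Dicer WT arrays, the highest was Dicer WT 3 for 34 of the 54 small RNAs, Dicer WT 1 for 18 and Dicer WT 2 for 2. In the host genes it was Dicer WT 1 for 5 of 6. Of the 16 members in the upper level class, Dicer WT 3 was the highest Dicer WT array for 14. Over all 19935 genes it was for 7252. It was for 52 of 63 ribosomal protein genes, for 8 of 10 ribosomal protein hosts and for 99 of 300 microRNA precursor genes. Dicer WT 3 was also the highest Dicer WT array for 10 of 12 other structured RNAs, among them the Y RNA gene Rny1 (-0.18, -0.65 and 0.97) and Rnu3a (-0.11, 0.08 and 1.19), which encodes U3, a C/D RNA of ribosomal RNA processing outside the member rule. In the fit without Dicer WT 3, 20 of 60 members were called lower, where 2.64% of all genes were. Of the 17 called in the full fit, 14 stayed. The C/D median was then -0.14 instead of -0.29, and the H/ACA median -0.44 instead of -0.37. Snord104 was called at -0.58, where the full fit gave -0.87 without a call. A count of calls thus does not measure the part of this array in the differences.

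Nearly all snoRNAs could be placed in a gene. Of 54 small RNA members, 53 were nested in 43 genes by the RefSeq gene table, which gives no strand, and where several genes overlapped, a textbook host or the protein-coding gene was taken. Ribosomal protein genes held 21 members, other protein-coding genes 18 and non-coding genes 14. Of these, 7, 3 and 6 fell, where 2.79% of all genes did, with median differences of -0.32, -0.21 and -0.54. Within ribosomal protein genes, 5 of 8 H/ACA snoRNAs and 2 of 13 C/D snoRNAs fell, a contrast that was not tested. Members that share a host are not independent. The 10 pairs that did differed by a median of 0.16 (log2) between partners, against 0.26 over all 1378 pairs, and 7 of the 10 had the same call. Some partners, such as Snora73a and Snora73b, are close copies, and signal shared between their rows was not looked at. The RNA's length bore little relation to its difference (Pearson r = -0.05, Spearman rho = -0.06 over 53 snoRNAs of 45 to 275 nucleotides that share arrays and hosts).

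A host could be set beside its snoRNA in 29 pairs, from 25 hosts with a row of their own. Of the ribosomal protein hosts, 9 of 10 fell and 0 rose in limma, with 9 lower and 0 higher at an unadjusted p under 0.05, and their median was -0.66. Of ribosomal protein genes at large, 50 of 63 fell and 0 rose, with a median of -0.54, where 2.79% of all genes fell. Of the 13 pairs with these hosts, the snoRNA and the host both fell in 3, namely Snora21 with Rpl23 (-0.44 ± 0.07, adjusted p = 0.012), Snora3 with Rpl27a (-0.49 ± 0.08, adjusted p = 0.0112) and Snora33 with Rps12 (-0.71 ± 0.11, adjusted p = 0.0109). The call of Rpl23 was lost without Dicer WT 1 (adjusted p = 0.0544).

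In 8 further pairs the host fell and the snoRNA was not called. Rps3, of the small subunit, fell by 0.68 on the log2 scale (SE 0.11, adjusted p = 0.0111), while its snoRNAs Snord15a and Snord15b gave -0.10 and -0.29 (adjusted p = 0.835 and 0.465). Rpsa, the host of Snora62, changed by -0.96 ± 0.09 (adjusted p = 0.00206), Rpl23a by -0.65 ± 0.08 (adjusted p = 0.0041), Rpl10, the host of Snora70, by -0.38 ± 0.05 (adjusted p = 0.00597) and Rplp2, the host of Snora52, by -0.72 ± 0.13 (adjusted p = 0.0191, lost without Dicer WT 1 at 0.0646). Rpl4 fell by 0.30 on the log2 scale (SE 0.05, adjusted p = 0.011), and its snoRNA Snord16a gave -0.30 with an SE of 0.16 (adjusted p = 0.348). Differences of host and snoRNA were thus close in some of these pairs, such as Rpl4 and Rpl10, and apart in others, such as Rps3. Rps3a1, which holds the called Snord73a and Snord73b, gave -0.68 ± 0.34 (adjusted p = 0.327).

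Among the 15 pairs with other protein-coding hosts, 2 hosts fell and 2 rose, where 2.79% of all genes fell and 5.94% rose. Eef1b2, a subunit of elongation factor 1, fell by 0.91 on the log2 scale (SE 0.12, adjusted p = 0.0053) beside -0.22 ± 0.11 for Snora41. Tpt1 fell by 0.35 (SE 0.06, adjusted p = 0.0147) and was lost without Dicer WT 1 or Dicer KO 2 (highest adjusted p 0.0664). Tcp1, a chaperonin subunit, rose by 0.42 ± 0.07 (adjusted p = 0.0147), and the nuclear import receptor Ipo7 by 0.43 ± 0.10 (adjusted p = 0.0435), while the snoRNAs inside them, Snora20 and Snora23, gave -0.22 and -0.33. The call of Tcp1 ended when Dicer WT 1, Dicer WT 2 or Dicer KO 2 was left out (highest adjusted p 0.0645) and that of Ipo7 when any array but Dicer KO 3 was (highest 0.15). Ncl gave -0.06 ± 0.19 (adjusted p = 0.919) beside the called Snord82. Over the 29 pairs, which share arrays and in part hosts, the differences of host and snoRNA had a Pearson r of 0.56 and a Spearman rho of 0.46. Over the 13 pairs with ribosomal protein hosts r was 0.03 and rho -0.30. What the probes of a snoRNA row read besides the mature RNA, such as the unspliced host transcript, is not known here.

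**Figure D3:**
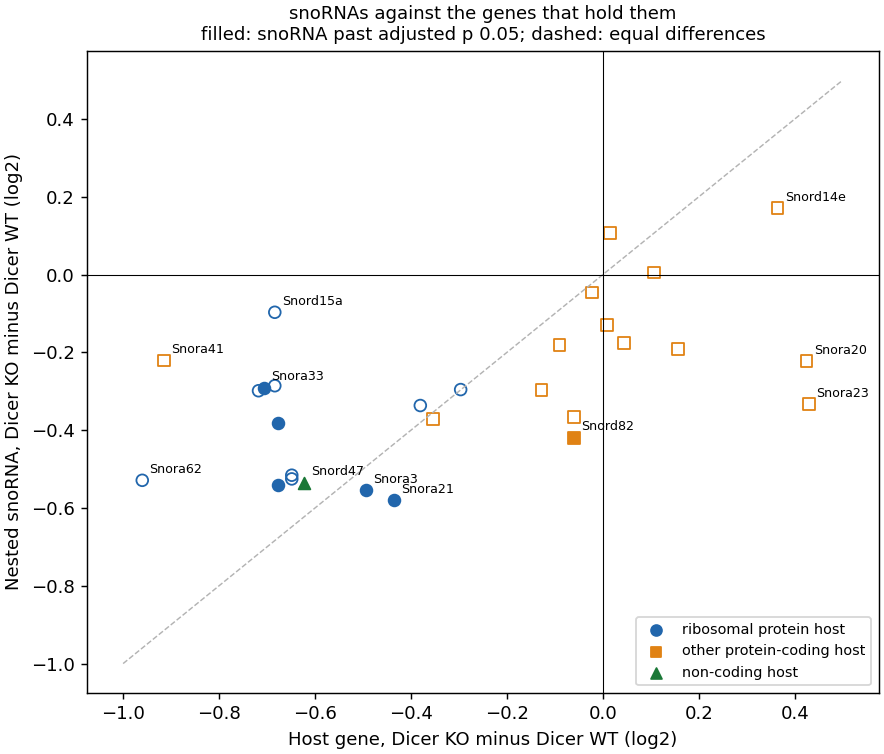
The difference of each nested snoRNA (vertical axis) against that of its host gene (horizontal axis), Dicer KO minus Dicer WT on the log2 scale, for the 29 pairs with a measured host. Colours and shapes give the kind of host, filled points are called snoRNAs, and the dashed line marks equal differences. Ribosomal protein hosts lie between -0.96 and -0.30, and their snoRNAs between -0.58 and -0.10.

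Genes for the proteins that form snoRNA particles were read beside the RNAs. In H/ACA particles, 3 of 4 core protein genes fell and 0 rose, where 2.79% of all genes fell and 5.94% rose. At an unadjusted p under 0.05 in limma, 4 were lower and 0 higher (9.4% and 12.1% over all genes). Dkc1 encodes dyskerin, the pseudouridine synthase. It read 0.30, 0.22 and 0.15 in Dicer WT and -0.20, -0.35 and -0.15 in Dicer KO (-0.46 ± 0.07, adjusted p = 0.00934). Nhp2 read 0.20, 0.42 and 0.54 against -0.44, -0.49 and -0.20 and had the largest difference of the list (-0.77 ± 0.11, adjusted p = 0.00716). Nop10 read 0.14, 0.20 and 0.14 against -0.23, -0.22 and -0.14 (-0.36 ± 0.05, adjusted p = 0.00768). The genotypes overlapped for none of the 3, and each stayed called without any 1 array (highest adjusted p 0.0437). Gar1, the remaining core protein, gave -0.31 ± 0.08 and was not called (adjusted p = 0.0729).

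Telomerase RNA, Terc, ends in an H/ACA domain that the same proteins bind. It fell by 0.33 on the log2 scale (SE 0.06, adjusted p = 0.0144), with 0.11, 0.18 and 0.25 in Dicer WT and -0.19, -0.17 and -0.11 in Dicer KO. The call was lost without Dicer WT 2 or Dicer KO 2 (highest adjusted p 0.0677).

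In C/D particles, 0 of 4 core protein genes were called, where 8.73% of all genes were. At an unadjusted p under 0.05 in limma, 1 was lower (9.4% over all genes). That was Fbl, the methyltransferase fibrillarin, at -0.21 ± 0.05 (adjusted p = 0.057), with no overlap between genotypes. Nop56 gave -0.02 ± 0.08, Nop58 -0.19 ± 0.18 and Snu13 0.00 ± 0.09. The difference between the core proteins of H/ACA and C/D particles was not tested, and the SE of Nop58 leaves its direction unsettled.

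Of 10 assembly factors, 2 rose and 0 fell, where 5.94% of all genes rose and 2.79% fell. At an unadjusted p under 0.05 in limma, 1 was lower and 2 higher (9.4% and 12.1% over all genes). Nufip1, which helps build C/D particles, rose by 0.26 ± 0.05 (adjusted p = 0.0158), and Pih1d1, a subunit of the R2TP chaperone complex, by 0.26 ± 0.06 (adjusted p = 0.0342). Leaving out Dicer WT 1, Dicer WT 2 or Dicer KO 2 ended both calls, and that of Pih1d1 ended also without Dicer KO 3 (highest adjusted p 0.0712 and 0.132). Of 5 Cajal body and export factors, 0 were called in limma. Only 1 was higher at an unadjusted p under 0.05 (12.1% over all genes), namely Phax (0.24 ± 0.06, adjusted p = 0.0622).

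**Figure D4:**
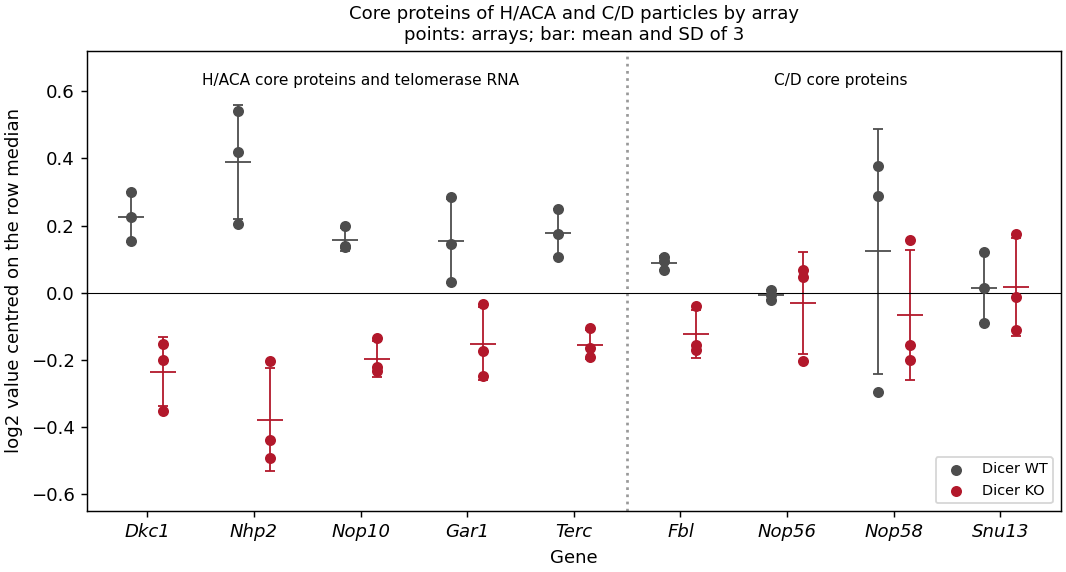
Values of the H/ACA core protein genes and telomerase RNA (left of the dotted line) and of the C/D core protein genes (right) on each array, as log2 values centred on the row median. Points are arrays, horizontal bars the means and vertical bars the SD of 3 arrays. Dicer WT and Dicer KO points are separate for Dkc1, Nhp2, Nop10, Gar1, Terc and Fbl and mix for Nop56, Nop58 and Snu13.

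Other short RNAs had medians near that of all genes. Of 300 microRNA precursor genes, 6 fell and 0 rose, with a median of -0.03. At an unadjusted p under 0.05 in limma, 28 were lower and 7 higher (9.4% and 12.1% over all genes). Differences were negative for 206, and 47 were lower and 11 higher without overlap (12.7% and 13.5% over all genes). The upper level class held 17 of the 300, against 16 of the 60 members. The share of microRNA precursor genes that fell, 2.0%, lies near the 2.79% over all genes. Of 12 other structured RNAs outside the member rule, Terc fell, 1 rose and the median was -0.03. The one that rose was the vault RNA Vaultrc5, which read -1.09, -1.01 and -0.50 in Dicer WT and 0.50, 0.97 and 0.61 in Dicer KO (1.56 ± 0.18, adjusted p = 0.00357). Rmrp and Rpph1, the RNAs of the nuclear RNases MRP and P, gave -0.07 ± 0.12 and 0.16 ± 0.09, and the spliceosomal RNA gene Rnu12 -0.16 ± 0.12. Whether the snoRNA classes differ from these was not tested.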

How the data were processed

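Values came from 1 table of log2 values that the authors deposited, with 28815 rows and 6 arrays. MAS5 appears in the submitters' processing notes, its role unstated. Normalization and log base are likewise unstated, so folds assume base 2. Each row was centred on its median (largest absolute row median 5e-07), so levels and a filter on them were not available. Values ran from -2.59 to 3.00 with 0 missing, and array medians from -0.0089 to 0.0063. Arrays carry no read depth, and their number limits the precision.

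Rows were named by GEO's platform annotation: 21780 rows had 1 symbol, 1605 several and 5430 were unnamed here. Rows of a gene were averaged, giving 19935 genes, tested by lmFit and eBayes of limma 3.58.1 (R 4.3.3) on 3 against 3 arrays at a threshold of 0.05. All 54 small RNA members matched the RefSeq gene table (GRCm38.p6) by gene ID, and hosts were taken by nesting without regard to strand, where the plan was nesting on the same strand. Start windows (chromosome 18 not used here) matched 38 of 48 hosts and Snhg members by symbol. Level classes came from the binary step of the stored numbers (tolerance 6e-08). The first rule for the pyrimidine tract, which missed tracts already running at the window's edge, was replaced after its output was seen.

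In the text the named genes are the called members, all host genes, the 4 most extreme members of each class in either direction, called hosts and snoRNA particle proteins. The members and lists were chosen with earlier results of these data known. Members named outside this rule were chosen after their values were seen. The host of 1 member is not reported here. Replicate numbers did not pair the samples. Alternatives were a replicate block, leaving out each array, array weights, robust eBayes, array medians, quantile normalization, single rows and rows with several symbols, and, chosen after seeing the data, centring within level classes. On data simulated for this comparison over 19935 genes, 66.0% of genes changed by 0.5 and 92.0% of those changed by 1 were recovered, with 2 unchanged genes called. The changed genes were drawn at random from all genes, with noise independent between genes. The members spread more (median SD 0.21 in Dicer WT and 0.13 in Dicer KO, against 0.076 over all genes). These shares are thus not those of the members.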

Additional observations from a re-analysis of the deposited data

Results flagged for a closer look

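Rows with several symbols were outside the comparison, and 41 of them name a snoRNA or host gene. Of these, 2 were called lower in Dicer KO when all annotated rows were tested by themselves with limma, and 0 were called higher. Of 21780 rows with 1 symbol tested by themselves, 769 were called lower and 1366 higher. Whether 2 of 41 differs from this was not tested, and 24 of the 41 rows belong to the Snord116 cluster. The row shared by Rpl12 and Snora65 differed by -0.62 (adjusted p = 0.0169), and the row shared by Snord68 and Rpl13 by -0.66 (adjusted p = 0.00762). In these rows signal of the snoRNA and of the ribosomal protein gene cannot be told apart.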

How the results depend on the processing

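Every class median stayed negative under every alternative run. Without 1 array at a time, 729 to 1597 genes were called in all, H/ACA calls ran from 5 to 9, C/D from 2 to 8, host genes from 0 to 2, Cajal body RNAs from 0 to 1 and snoRNA particle proteins from 3 to 6. The H/ACA median then ran from -0.48 to -0.35, the C/D median from -0.34 to -0.14 and the host gene median from -0.43 to -0.24. Array weights gave 3 host genes, 9 particle proteins and an H/ACA median of -0.45, and quantile normalization gave an H/ACA median of -0.45. With every row by itself, 2 host gene rows and 2 Cajal body rows were called, the latter being the 2 nearly equal rows of Scarna17. With the replicate block, 2063 genes, 11 H/ACA, 6 C/D and 3 host genes were called, Gas5 (adjusted p = 0.0234) and Snhg5 (0.0277) among them, and Snord82 was not (0.0722). The numbers share no stated source, and deviations of same-numbered arrays correlated at 0.27, -0.08 and 0.30. Centring within level classes, chosen after seeing the data, left Snora33 (adjusted p = 0.0503) and Snord82 (0.0571) uncalled, and array weights left Snord82 uncalled (0.0511). Differences near 0 turned: Snhg11 ran from -0.0383 to 0.029 over the fits that leave out an array, positive in those lacking Dicer WT 1 or Dicer KO 1, and was 0.0043 with centring within level classes. Snord35a ran from -0.11 to 0.23, negative in the fit lacking Dicer WT 1. The cause was not tested. Pairs limited to textbook hosts of Gas5 and Snhg genes left 1 pair, too few for a correlation. With 3 arrays a genotype, a member of wide spread can differ by more than a called one and not pass.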

Other observations

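The 24 rows of the Snord116 cluster, C/D RNAs best known from neurons, carry several symbols and gave differences of 0.22 to 0.31, with 0 called in limma and 0 at an unadjusted p under 0.05. These rows carry the same symbols and are not independent, and Dicer KO 3 was the high array in them. The row shared by Snora24 and its host Snhg8 gave -0.999 (adjusted p = 0.139), with 1.42, 0.80 and -0.04 in Dicer WT and 0.04, -0.32 and -0.54 in Dicer KO. Its Dicer WT 3 array was the lowest of the Dicer WT arrays, as in Gas5 and Snhg5. The row shared by Snord32a and Rpl13a gave 0.34 (adjusted p = 0.457), the row shared by Snord34 and Rpl13a -0.0090 (adjusted p = 0.988), and Snord33, in the same gene, 0.23.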
